A study of Rattus norvegicus with 2 samples.

Results

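The genes described here encode proteins of the mitochondrial ribosome. They were taken by name, as every name of the deposited gene table that begins with Mrpl or Mrps followed by a number, with identical rows counted once and at least 20 reads required over both libraries. The rule found 73 genes among 14913 distinct names, and all 73 were among the 12102 genes over that minimum. Mrpl11 was not among them, so the 73 are not every gene of the mitochondrial ribosome. By name, 44 belonged to the large subunit (Mrpl) and 29 to the small subunit (Mrps). The counts came from poly(A)-selected RNA sequencing of the line RBL-2H3, which came from a basophilic leukemia of the rat and is widely used to study mast cells and basophils. The IgE group was 1 library of wild-type cells incubated with IgE, and the untreated group was 1 library of wild-type cells that received no treatment. The labels give no IgE dose, no duration and no statement on antigen, and each library stands for 1 culture of 1 tumor-derived line. With 1 library per group, no difference between IgE and untreated cells has a replicate check, and no test across samples was made.

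The IgE library held 26268330 counted reads and the untreated library 20917968. The label of the cells was checked with 6 transcripts of mast cells and basophils, namely Fcer1a, Ms4a2 and Fcer1g of the IgE receptor, Hdc, Cpa3 and Kit, and each was counted, with 112179 reads in the IgE and 82489 in the untreated library in all. Their own folds were mostly higher with IgE, at log2 values of 0.33 for Fcer1a, 0.26 for Cpa3, 0.22 for Fcer1g and 0.13 for Ms4a2, each with a counting interval above 0, while Hdc was at 0.01 and Kit at -0.04. Macrophage markers (3 of 4 measured, each with a log2 fold below 0) summed to 84 IgE and 115 untreated reads, and lymphocyte markers (3 of 4 measured) to 441 and 331. Ngp, the measured 1 of 4 neutrophil markers, had 39 IgE and 26 untreated reads. Of 4 genes listed as fibroblast and epithelial markers, 2 were measured. Col3a1 had 6619 IgE and 5904 untreated reads (log2 fold -0.16, counting interval -0.21 to -0.11). Thy1 had 3866 IgE and 3034 untreated reads (0.03, -0.04 to 0.10). Whether these reads came from cells of another type was not tested. The part of these markers in the folds below was not tested. Fewer cells of a kind and less RNA per cell cannot be told apart in such bulk libraries.

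As background, the mitochondrial ribosome is built from a large and a small subunit, each with an rRNA from the mitochondrial genome and many proteins encoded in the nucleus. These proteins are made in the cytosol and imported, and the finished ribosome translates the few mRNAs of the mitochondrial genome, all of which encode subunits of the respiratory chain and the ATP synthase. Many of the proteins have counterparts in the bacterial ribosome, and others are specific to mitochondria. In mast cells and basophils, mitochondria supply ATP and take up calcium while granules are released.

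Most mitochondrial ribosomal protein transcripts were slightly higher in the IgE library. The log2 fold of IgE over untreated CPM (counts per 1e+06 reads after TMM scaling) was above 0 for 65 of the 73 genes and below 0 for 8 (64 above with library totals or DESeq2 size factors, where Mrpl37 falls just below 0), while 50.3% of all 12102 tested genes were above 0. The median log2 fold was 0.14, with quartiles of 0.08 and 0.25, beside a median of 0.00 over all tested genes. The family's reads summed to 2523 CPM in the IgE library and 2286 CPM in the untreated library, which is 0.252% (exact Clopper-Pearson 95% interval 0.25 to 0.254) and 0.229% (0.227 to 0.231) of all reads. The log2 ratio of the sums was 0.14 (0.13 to 0.16). These intervals hold the error of counting alone, because PCR copies of a molecule cannot be separated and each group has a single culture.

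Large differences were few. At least 2-fold apart was 1 of the 73 genes, Mrps17, against 2.63% of all tested genes, so this share was near the background. It was 2-fold higher, as were 1.33% of all tested genes, and none of the 73 was 2-fold lower, as were 1.30%. At least 1.5-fold higher with IgE were Mrps17 and Mrpl35, and none was 1.5-fold lower. Of all tested genes 7.17% were 1.5-fold apart, 3.60% higher and 3.57% lower. By the rule of a 95% counting interval entirely above 0, which sets no size of fold, 31 of the 73 genes (42.5%) were higher with IgE, against 19.4% of all tested genes. The same interval lay below 0 for 1 gene, Mrps9 (1.37% of the family), against 19.1% of all tested genes. The remaining 41 genes had intervals that included 0. The folds of the 51 genes with 1000 or more reads had an SD of 0.14, wider than the 0.07 that counting error alone would give them, and ran from -0.12 to 0.57. All 3918 tested genes with 1000 to 4000 reads had an SD of 0.17.

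**Figure D1:**
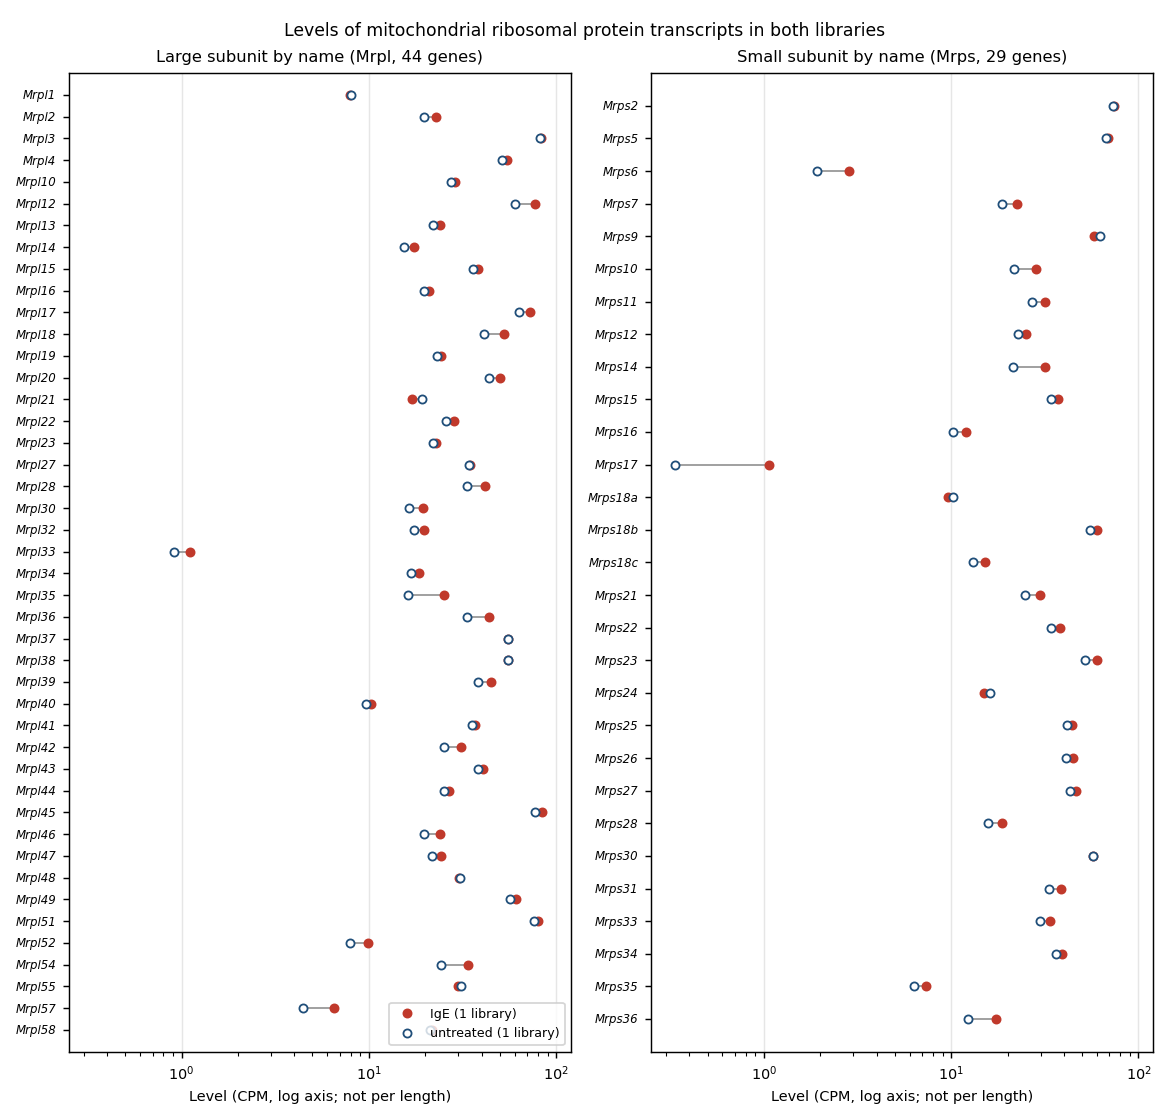
Level of each of the 73 genes in the IgE library (filled) and the untreated library (open), in CPM on a log axis, with Mrpl genes left and Mrps genes right in order of their number. The filled point lies right of the open one for 65 genes; levels are not per length, so heights along the axis do not rank genes.

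The large-subunit genes had a median log2 fold of 0.13, and 40 of 44 were above 0 (39 with library totals or DESeq2 size factors). Mrpl35, a counterpart of the bacterial protein bL35, had the highest fold of them. It stood at 25.1 CPM (659 reads) in the IgE library and 16.2 CPM (340 reads) in the untreated library, a log2 fold of 0.63 (counting interval 0.44 to 0.83). Mrpl57 followed at 6.49 IgE and 4.44 untreated CPM (0.55, 0.17 to 0.93), and Mrpl54 at 33.8 and 24.2 CPM (0.48, 0.33 to 0.64). Both of these proteins are specific to mitochondria. Mrpl36, a counterpart of the bacterial bL36, was at 43.7 CPM with IgE and 33.5 CPM untreated (0.38, 0.24 to 0.52). Mrpl52, also specific to mitochondria, was at 9.84 IgE and 7.92 untreated CPM (0.31, 0.03 to 0.60). Each of these 5 genes had an interval above 0.

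Of the large subunit's flexible stalk, which recruits translation factors, Mrpl12 and Mrpl10 were compared, and their folds differed. These are not all the genes of that region. Mrpl12, the stalk protein itself, which in human cells also binds the mitochondrial RNA polymerase, had 77.5 CPM with IgE and 60.5 CPM untreated, a log2 fold of 0.36 (0.26 to 0.46). Mrpl10, which anchors it, had 28.9 and 27.3 CPM (0.08, -0.08 to 0.24). The interval of Mrpl12 lay above that of Mrpl10. Mrpl1, the counterpart of the protein of the opposite L1 stalk, stood at 7.93 IgE and 8.06 untreated CPM (-0.02, -0.32 to 0.28).

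Genes for proteins around the peptidyl transferase center and the exit tunnel lay on both sides of the Mrpl median. Mrpl3, a counterpart of bacterial uL3 near the catalytic center, was at 83.4 CPM with IgE and 82.1 CPM untreated (log2 fold 0.02, -0.07 to 0.11). Mrpl2, the counterpart of uL2, was at 22.9 and 19.6 CPM (0.22, 0.04 to 0.41), and Mrpl27, that of bL27, at 34.7 and 34.2 CPM (0.02, -0.12 to 0.16). Of these 3 genes, the interval lay above 0 for Mrpl2. Mrpl4 and Mrpl22, whose bacterial counterparts line the tunnel, had log2 folds of 0.09 (-0.03 to 0.20) and 0.13 (-0.03 to 0.29). Mrpl23, at the tunnel exit, had 0.06 (-0.12 to 0.24). Mrpl45, which holds the ribosome to the inner membrane beside the exit, was at 84.4 CPM with IgE and 77.3 CPM untreated (0.13, 0.03 to 0.22), with an interval just above 0.

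The central protuberance, where the large subunit meets the small subunit's head, showed a spread among those of its genes named here. These are not all the genes of the protuberance. Mrpl18 had 52.8 CPM with IgE and 41.4 CPM untreated (log2 fold 0.35, 0.23 to 0.48), and Mrpl46 had 24.0 and 19.7 CPM (0.29, 0.10 to 0.47). Mrpl40 was at 0.08 (-0.19 to 0.35), Mrpl38 at 0.01 (-0.10 to 0.13) and Mrpl48 at -0.01 (-0.16 to 0.14). The intervals of Mrpl18 and Mrpl46 were above 0 and those of the other 3 included it.

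Mrpl17, the counterpart of bL17, which in bacteria lies near the tunnel exit, had 73.0 CPM with IgE and 63.3 CPM untreated (0.20, 0.10 to 0.31). Mrpl51, specific to mitochondria, had 80.1 and 76.0 CPM (0.08, -0.02 to 0.17), and Mrpl37, also specific to mitochondria, 55.6 and 55.5 CPM (0.00, -0.11 to 0.11). Mrpl39, again specific to mitochondria, had 44.9 and 38.2 CPM (0.23, 0.10 to 0.36). Of these 4 genes, the intervals of Mrpl17 and Mrpl39 lay above 0.

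Intervals that included 0 were found for Mrpl58 and Mrpl44, whose large-subunit proteins are enzyme-like. Mrpl58, a peptidyl-tRNA hydrolase that releases peptides from stalled ribosomes, had 21.8 CPM with IgE and 21.1 CPM untreated (log2 fold 0.05, -0.13 to 0.23). Mrpl44, which carries a ribonuclease III-like fold, had 26.8 and 25.3 CPM (0.08, -0.08 to 0.25). The lowest large-subunit gene was Mrpl21, a counterpart of bL21, with 17.1 CPM in the IgE library and 19.2 CPM in the untreated library (-0.17, -0.37 to 0.02), followed by Mrpl55 (-0.04). None of the 44 Mrpl genes had an interval below 0. Mrpl33 rested on 29 IgE and 19 untreated reads, and its fold of 0.28 had an interval of -0.60 to 1.204.

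**Figure D2:**
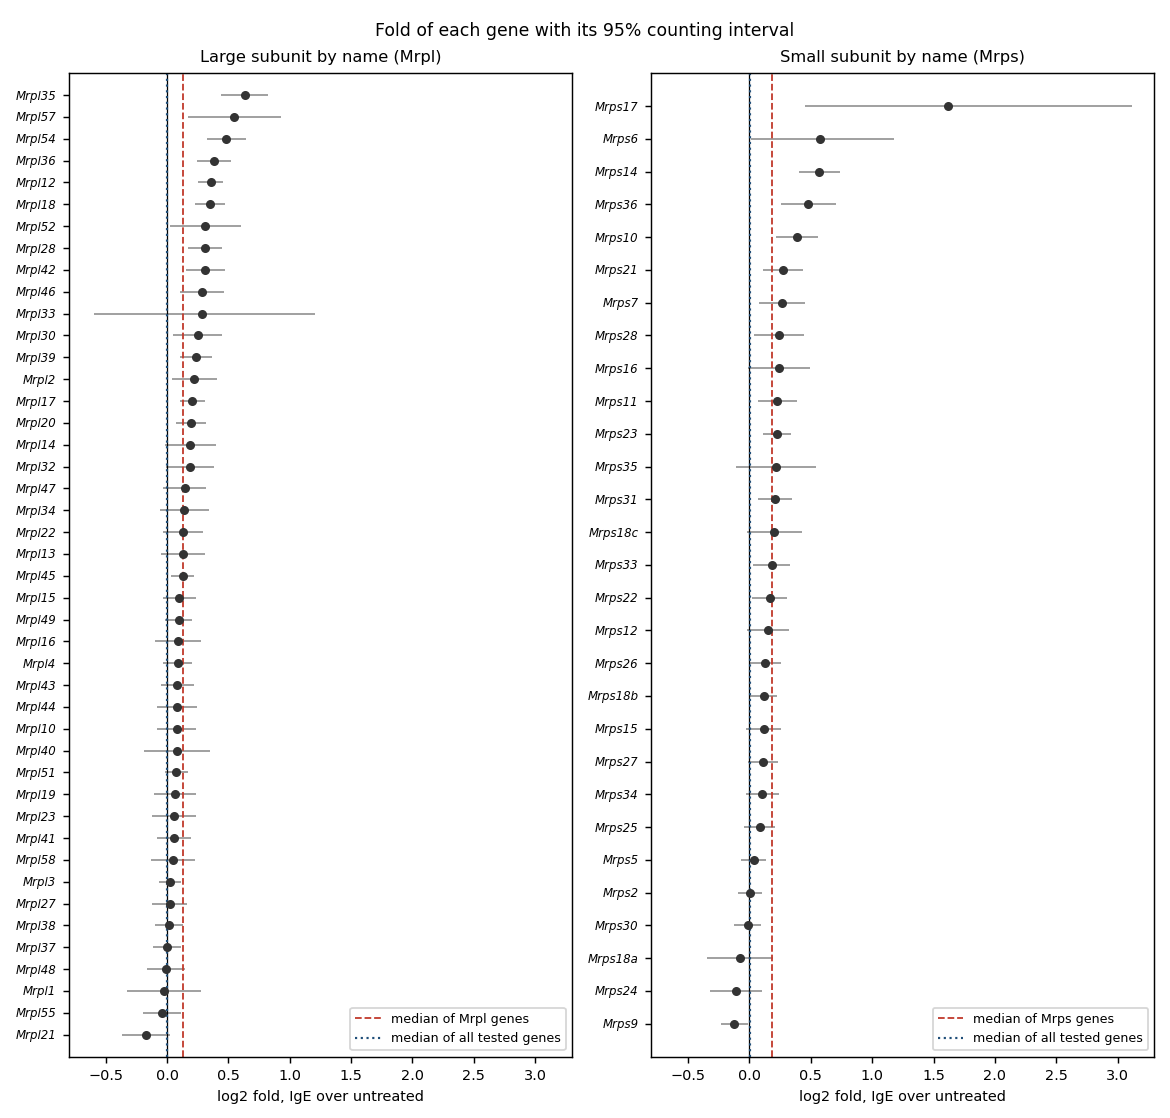
Log2 fold of IgE over untreated for each gene with its exact 95% counting interval, Mrpl genes left and Mrps genes right, ordered by fold. Dashed lines mark the medians of 0.13 (Mrpl) and 0.18 (Mrps), and the dotted line the median of all tested genes, 0.00; the interval lies above 0 for 16 Mrpl and 15 Mrps genes.

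The small-subunit genes had a median log2 fold of 0.18, and 25 of 29 were above 0. In the head of the subunit, Mrps14, a counterpart of bacterial uS14, was the highest gene of the family with more than 1000 reads over both libraries. Mrpl35, just under that number with 999 reads, had a higher log2 fold (0.63). Mrps14 stood at 31.5 CPM (827 reads) with IgE and 21.3 CPM (446 reads) untreated, a log2 fold of 0.57 (0.40 to 0.74). Mrps10, the counterpart of uS10, had 28.4 and 21.7 CPM (0.39, 0.22 to 0.56), and Mrps7, that of uS7, 22.5 and 18.8 CPM (0.27, 0.08 to 0.45). Mrps9, the counterpart of uS9 in the same head, went the other way, with 57.5 CPM (1508 reads) in the IgE library and 62.6 CPM (1313 reads) in the untreated library (-0.12, -0.23 to -0.02). These are not all the genes of the head. The intervals of the first 3 were above 0 and that of Mrps9 was below 0.

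Genes of proteins where the mRNA is read and enters had folds from about the family median of 0.14 to below 0. Mrps12, the counterpart of uS12 at the decoding site, had 25.1 CPM with IgE and 22.7 CPM untreated (0.15, -0.02 to 0.32). Mrps5 was at 68.5 and 66.8 CPM (0.03, -0.07 to 0.14), and Mrps24, the counterpart of uS3, at 14.99 and 16.17 CPM (-0.11, -0.32 to 0.10). Each of these 3 intervals included 0. Mrps2, the counterpart of uS2, was at 73.5 CPM with IgE and 73.2 CPM untreated (0.01, -0.09 to 0.10), close to level.

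The highest fold of the whole family, that of Mrps17, rested on few reads. This counterpart of uS17 had 28 reads (1.07 CPM) in the IgE library and 7 reads (0.33 CPM) in the untreated library, a log2 fold of 1.62 with an interval of 0.45 to 3.12. With a prior of 5 counts in place of 0.5 the fold was 1.23. Mrps6, the counterpart of bS6, had 75 and 40 reads (0.58, 0.01 to 1.176), again with a wide interval. Mrps35, specific to mitochondria, had 193 IgE and 133 untreated reads (0.21, -0.11 to 0.54), and its interval included 0. Mrps21, the counterpart of bS21, was at 29.9 CPM with IgE and 24.7 CPM untreated (0.27, 0.11 to 0.44). Mrps22, a protein specific to mitochondria, was at 38.1 and 34.0 CPM (0.16, 0.02 to 0.31).

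The 3 genes of the S18 family, which are related to 1 bacterial protein and occupy different places in the mammalian mitochondrial ribosome, had overlapping intervals. Mrps18c had 15.1 CPM with IgE and 13.1 CPM untreated (log2 fold 0.20, -0.02 to 0.43). Mrps18b had 59.9 and 55.2 CPM (0.12, 0.01 to 0.23), and Mrps18a had 9.65 and 10.2 CPM (-0.07, -0.34 to 0.20). Their intervals shared a common range, and the differences between these folds were not tested. In structures of the mammalian ribosome the protein of Mrps18a lies in the large subunit, as does that of Mrps30, which was at 56.9 CPM with IgE and 57.4 CPM untreated (-0.01, -0.12 to 0.10).

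Mrps36 carries a small-subunit name, but RefSeq lists it as Kgd4, and its product is known as a part of the oxoglutarate dehydrogenase complex. It had 17.2 CPM with IgE and 12.4 CPM untreated (log2 fold 0.48, 0.26 to 0.71), among the 4 highest Mrps folds. Without it the Mrps median was 0.17.

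Whether the large or the small subunit was higher depended on how their genes were summarized. The median fold was lower for Mrpl than for Mrps genes by 0.05, and the mean was 0.16 for Mrpl and 0.23 for Mrps. The log2 ratio of summed reads had the opposite order, 0.15 (0.13 to 0.17) for Mrpl and 0.13 (0.10 to 0.16) for Mrps, with overlapping intervals. Mrps genes took 38.3% of the family's reads with IgE (37.9 to 38.7) and 38.6% untreated (38.2 to 39.0). With only Mrps18a and Mrps30 moved to the Mrpl genes, the medians were 0.11 and 0.20, a difference of -0.09. The remaining Mrps genes took 35.67% of the family's reads with IgE (35.30 to 36.03) and 35.65% untreated (35.22 to 36.08). Mrps36 was kept among them, and genes of the mitochondrial ribosome with other names were in neither group. The balance of reads between these groups of genes thus differed by less than its counting error. Intervals were above 0 for 16 of 44 Mrpl genes (36.4%) and 15 of 29 Mrps genes (51.7%), and no test of the difference was made, since genes are not replicates.

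**Figure D3:**
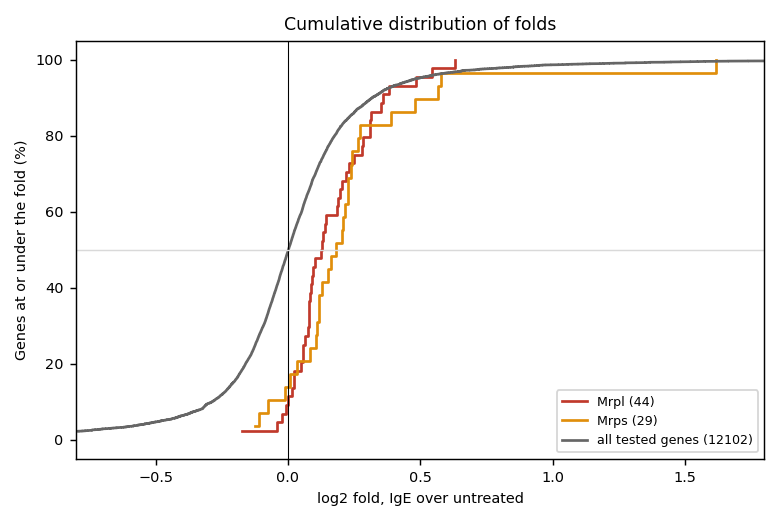
Cumulative share of genes (%) at or under each log2 fold of IgE over untreated, for 44 Mrpl genes, 29 Mrps genes and all tested genes. Above 0 lie 90.9% of Mrpl, 86.2% of Mrps and 50.3% of all tested genes; the Mrpl and Mrps curves cross more than once, and the last Mrps step is Mrps17 at 1.62.

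Genes with and without a bacterial counterpart, as given by the standard names of ribosomal proteins, were both mostly above 0. The 42 with a counterpart had a median log2 fold of 0.19, with 38 above 0, and the 30 specific to mitochondria had a median of 0.11, with 26 above 0. Intervals lay above 0 for 17 (40.5%) and 13 (43.3%) of them. By summed reads the log2 ratio was 0.16 (0.14 to 0.18) for genes with a counterpart and 0.12 (0.09 to 0.14) for those specific to mitochondria, intervals that overlapped at their ends. Mrps36 was put in neither class. Mrps18a and Mrps18b, though related to a bacterial protein, were put by their standard names in the class specific to mitochondria.

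The promoters were examined because most of the genes lay above 0 together. A window of 250 bases before to 50 after the start was held by RefSeq (GRCr8) for 58 of the 73 genes. The following 5 were chosen to show genes of higher and of lower fold, each both with and without the motifs searched. Capitals mark matches on either strand to CCGGAAG (the core bound by ETS factors such as GABPA), GCATGCG (NRF1) and AAGATGGC (YY1), which are known regulators of nuclear genes for mitochondrial proteins.
Mrpl36 promoter, GRCr8 chr1:31795072-31795371, minus strand: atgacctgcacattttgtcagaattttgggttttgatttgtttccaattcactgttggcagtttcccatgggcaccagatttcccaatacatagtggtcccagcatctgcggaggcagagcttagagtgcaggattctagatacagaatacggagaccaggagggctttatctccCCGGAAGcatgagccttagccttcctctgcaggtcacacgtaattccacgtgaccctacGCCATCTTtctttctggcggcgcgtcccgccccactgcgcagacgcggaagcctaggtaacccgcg
Mrps14 promoter, GRCr8 chr13:74962347-74962646, plus strand: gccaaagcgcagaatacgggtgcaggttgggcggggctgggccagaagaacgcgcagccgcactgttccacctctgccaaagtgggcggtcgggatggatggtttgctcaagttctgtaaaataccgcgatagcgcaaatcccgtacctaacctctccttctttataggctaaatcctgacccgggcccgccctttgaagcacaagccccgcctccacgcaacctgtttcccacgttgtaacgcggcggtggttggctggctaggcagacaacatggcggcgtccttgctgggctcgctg
Mrps18b promoter, GRCr8 chr20:2842756-2843055, plus strand: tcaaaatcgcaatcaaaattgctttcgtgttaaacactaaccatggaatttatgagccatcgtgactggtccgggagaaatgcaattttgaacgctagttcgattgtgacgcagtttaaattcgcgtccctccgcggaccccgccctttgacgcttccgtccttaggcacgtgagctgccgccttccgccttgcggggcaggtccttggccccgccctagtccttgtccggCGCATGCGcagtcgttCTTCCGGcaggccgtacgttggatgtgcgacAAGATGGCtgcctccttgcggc
Mrps18a promoter, GRCr8 chr9:22367331-22367630, minus strand: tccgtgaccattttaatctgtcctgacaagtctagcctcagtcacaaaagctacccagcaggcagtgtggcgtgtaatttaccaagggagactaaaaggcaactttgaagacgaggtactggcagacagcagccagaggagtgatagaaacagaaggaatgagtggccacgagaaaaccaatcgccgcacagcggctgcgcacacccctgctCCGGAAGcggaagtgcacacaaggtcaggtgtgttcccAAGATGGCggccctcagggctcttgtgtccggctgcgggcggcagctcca
Mrps9 promoter, GRCr8 chr9:52605428-52605727, plus strand: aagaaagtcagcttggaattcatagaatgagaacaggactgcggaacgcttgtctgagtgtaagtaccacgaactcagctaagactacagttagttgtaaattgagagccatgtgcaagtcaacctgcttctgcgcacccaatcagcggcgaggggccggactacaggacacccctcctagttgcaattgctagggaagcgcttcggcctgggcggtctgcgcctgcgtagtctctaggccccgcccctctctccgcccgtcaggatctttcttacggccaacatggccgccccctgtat
Mrpl36, with a log2 fold of 0.38, and Mrps18a, with -0.07, each hold 1 ETS and 1 YY1 match. Mrps14, with a fold of 0.57, holds none of the 3 motifs. Mrps18b, with a fold of 0.12, holds all 3 motifs, its NRF1 letters being read on both strands at 1 place. Mrps9, the gene with an interval below 0, holds none of the 3 either. None of the matches printed here overlaps a match to another of these motifs.

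Across the 58 promoters, the YY1 letters were found in 14 (24.1%), against 6.31% of the 8560 tested genes with a promoter in the table and 3.44% of all 27457 symbols there. ETS letters were found in 20 (34.5%), against 19.8% of tested genes and 9.22% of all symbols. NRF1 letters were found in 6 (10.3%), against 6.79% and 3.54%. GGGCGG, bound by SP and KLF factors, was in 29 of the 58, against 62.8% and 34.9%, and TATAAA in 7 (12.1%), against 6.67% and 14.3%. Matches are descriptions of the letters, not binding sites. The median log2 fold was 0.16 with and 0.16 without the ETS letters, and 0.15 with and 0.16 without the YY1 letters. It was 0.12 with and 0.18 without the NRF1 letters (6 and 52 genes), and 0.13 with and 0.18 without GGGCGG. With and without TATAAA it was 0.23 and 0.14 (7 and 51 genes). None of these differences was tested.

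Many of these genes start beside a gene on the other strand. Of the 58, 18 (31.0%) had a start site on the opposite strand within 1000 bases upstream, against 18.0% of tested genes. Mrpl46 and Mrps11 form such a pair within the family, with log2 folds of 0.29 and 0.23. In the 15 pairs with a tested partner outside the family, all 15 mitochondrial ribosomal genes were above 0 (median 0.12; Mrpl37 at 0.00 falls below 0 with library totals or DESeq2 size factors), while 6 partners were above 0 and 9 below (median -0.07). Mrpl51 had a log2 fold of 0.08 and its partner Ncapd2, a condensin subunit, -0.11 (7296 IgE and 6306 untreated reads). Mrpl49 was at 0.10 and its partner Fau, which encodes a cytosolic ribosomal protein fusion, at 0.44 (4435 and 2616 reads). The ribosomal gene had the higher fold in 11 of the 15 pairs.

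The further proteins of the mitochondrial ribosome that carry other names were also above 0 in all 5 cases, with a median of 0.08. Chchd1 was at 0.29 (0.13 to 0.45), Ptcd3 at 0.08 (0.01 to 0.16), the GTP-binding protein gene Dap3 at 0.08 (-0.04 to 0.20), Gadd45gip1 at 0.07 (-0.08 to 0.22) and Aurkaip1 at 0.02 (-0.06 to 0.10). The intervals of Chchd1 and Ptcd3 lay above 0.

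Genes that act on or with the ribosome were closer to the background. Of 30 listed assembly and rRNA modification genes 28 were tested; 17 were above 0 and the median log2 fold was 0.06, with 5 intervals above 0 and 1 below. Mterf4 (0.47), which recruits an rRNA methyltransferase, and the assembly factor Malsu1 (0.40) were highest, and the helicase gene Ddx28 (-0.27) and the rRNA methyltransferase gene Mrm2 (-0.15) lowest. Among 14 mitochondrial translation factors the median was 0.06, with 10 above 0. Mtfmt, which formylates the initiator tRNA, was at 0.42 (419 IgE and 250 untreated reads) and the RNA-binding protein gene Slirp at 0.38, while Taco1 (-0.23) and Gfm2 (-0.08) were lowest. The 15 mitochondrial aminoacyl-tRNA synthetases had a median of 0.00, from Wars2 (0.34) and Fars2 (0.31) to Vars2 (-0.37) and Mars2 (-0.23), with 3 intervals above and 4 below 0.

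Genes for transcription of the mitochondrial genome and its nuclear regulators had medians nearer to that of all genes. The 11 genes of mitochondrial DNA transcription and replication had a median of 0.07, with the single-strand binding protein gene Ssbp1 (0.29) and the transcription factor gene Tfb2m (0.13) highest and Polrmt, the mitochondrial RNA polymerase (-0.18), and Top1mt (-0.11) lowest. Of 8 biogenesis regulators, 1 was above 0, Gabpa at 0.08 (2700 IgE and 2036 untreated reads), and the median was -0.06. Pprc1 was next highest (-0.01). Nrf1 stood at -0.14 (-0.23 to -0.06). The lowest were Esrra at -1.202, on 16 IgE and 30 untreated reads, and Ppargc1b at -0.20. Whether the spread between cultures is wider than these differences cannot be told from 1 library per group.

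The lists that follow had medians above the family's median of 0.14. The 71 nuclear genes of the respiratory chain had a median log2 fold of 0.25 with 65 above 0, running from Ndufs6 (-0.52, on 12 IgE and 14 untreated reads) and Sdhd (-0.05) to Cox7c (0.55) and Cox7b (0.93, on 86 and 36 reads). The 75 cytosolic ribosomal protein genes had a median of 0.28, with 74 above 0, from Rpl38 (-0.07) and Rps2 (0.05) to Rps27a (0.68) and Rps12l2 (1.19, on 35 and 12 reads). The 13 proteins encoded in the mitochondrial genome had a median of 0.16, from Mt-atp8 (0.02) and Mt-nd5 (0.04) to Mt-atp6 (0.38) and Mt-nd3 (0.61). The 23 protein import genes had a median of 0.15 and 13 intervals above 0, with Timm10 (0.65) and Timm10b (0.55) highest and Timm21 (-0.37) and Timm44 (-0.07) lowest. Positive medians of this size were thus found in other lists as well.

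**Figure D4:**
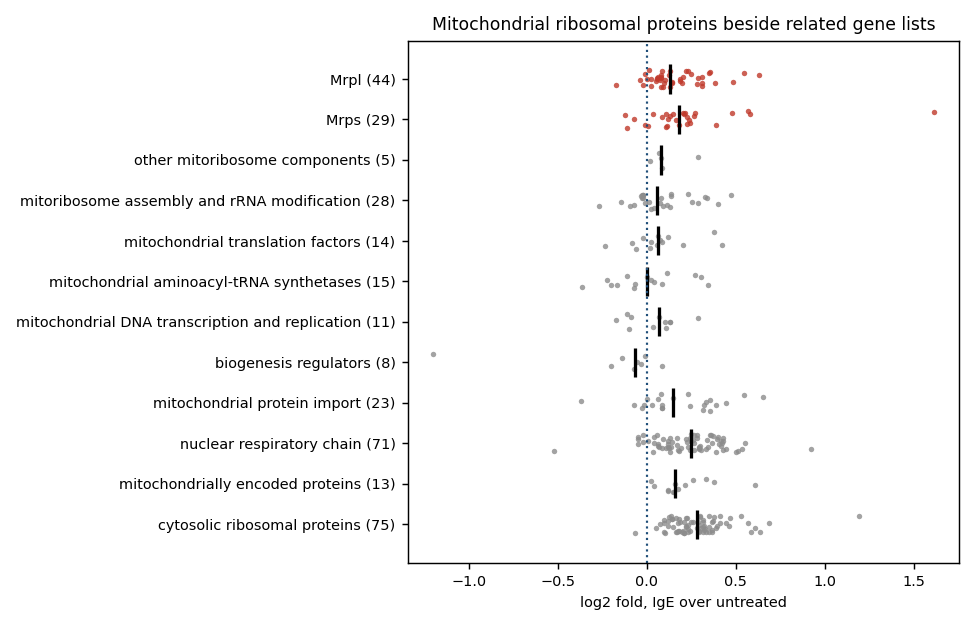
Log2 fold of IgE over untreated for each tested gene of the Mrpl and Mrps families (red) and 10 related lists (grey), with the number of genes in brackets; black bars are list medians and the dotted line is the median of all tested genes. The medians of Mrpl (0.13) and Mrps (0.18) lie below those of the nuclear respiratory chain (0.25) and cytosolic ribosomal proteins (0.28) and above that of the aminoacyl-tRNA synthetases (0.00).

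Gene size moved with these folds. The median span of the genes in RefSeq, introns included, was 6.95 kb for the 72 mitochondrial ribosomal genes with a match and 23.9 kb for 10197 tested genes with a match. Over those 10197 genes the fold and the span had a Spearman rho of -0.19, and over the 72 genes -0.17, given as descriptions across genes of the same 2 libraries. Among all tested genes spanning under 5 kb the median log2 fold was 0.08, and it was -0.04 among those of 50 kb or more. Within the same classes the mitochondrial ribosomal genes had medians of 0.17 (26 genes) and 0.05 (6 genes, of which 3 were above 0). The classes of 5 to 10 kb and 10 to 20 kb gave 0.18 (21 genes) and 0.13 (13 genes), where all tested genes gave 0.04 and 0.01. The family's median thus lay above that of all tested genes in each of the 5 classes, and the part of gene or transcript length in the folds was not tested.

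The fold also moved with the number of reads within the family. Median log2 folds were 0.28 for the 9 genes under 500 reads over both libraries, 0.20 for 13 genes from 500 to 1000, 0.14 for 31 genes from 1000 to 2000, and 0.09 for 20 genes from 2000 to 4000. The first 2 classes hold few genes. In all tested genes the same classes had medians of 0.02, 0.02, 0.01 and 0.00. Across the 73 genes the fold and the reads had a Spearman rho of -0.29, and across all tested genes -0.03, again as descriptions across genes.

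**Figure D5:**
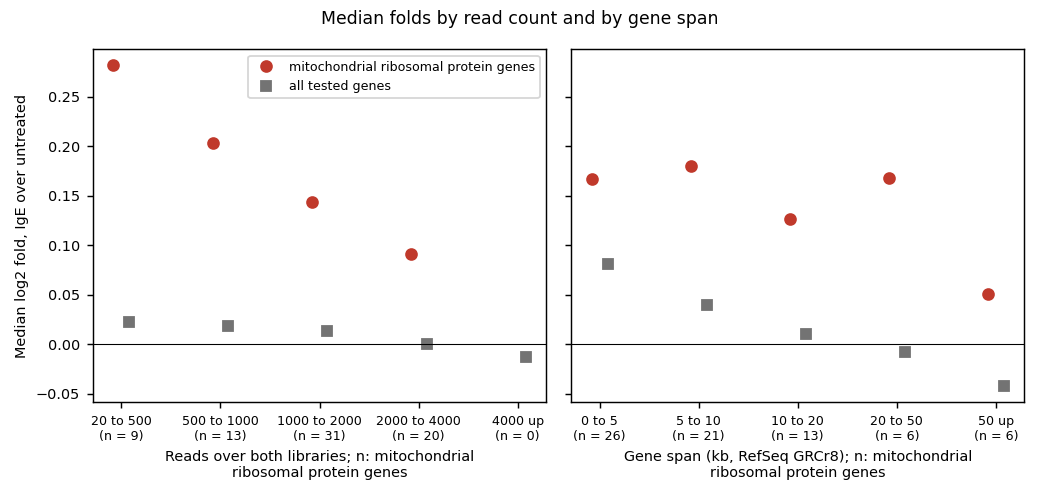
Median log2 fold of IgE over untreated by class of reads over both libraries (left) and of RefSeq gene span (right), for mitochondrial ribosomal protein genes (circles) and all tested genes (squares). The circles lie above the squares in each class that holds both, and decrease from 0.28 to 0.09 with reads; no mitochondrial ribosomal gene had 4000 or more reads.

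Pseudogene copies could make some counts uncertain, but their likeness to the genes was not measured. RefSeq lists pseudogene symbols for 23 of the 73 genes, with 9 for Mrpl30 (log2 fold 0.25, 0.05 to 0.45), and it lists them for Mrps17, Mrps10 and Mrpl54 too. The 23 had a median log2 fold of 0.20 and the other 50 genes 0.12, with 22 and 43 above 0. How reads that map to several places were counted is not given in the sources used here, so the part of such copies was not tested.

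In the authors' deposited table, 5 of the 73 genes had an unadjusted p under 0.05, which is 6.85% against 4.44% of all tested genes. These were Mrpl35 (0.00587), Mrps17 (0.00841), Mrps14 (0.0116), Mrpl54 (0.0305) and Mrps36 (0.0438), all higher with IgE in the authors' deposited table. None had an adjusted p under 0.05 there, the smallest being 0.394 for Mrpl35. The authors' deposited list of 451 selected names held 1 of the 73 genes, Mrps17. These p-values were recomputed to within 3.47e-08 by edgeR's exact test with a fixed dispersion of 0.01, so they rest on an assumed spread and not on replicates.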

How the data were processed

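RNA was measured in 1 IgE and 1 untreated library, grouped by the treatment label. For each gene the authors deposited whole-number read counts of both libraries. Beside them stand the authors' log2 fold changes, and p-values before and after adjustment, per the file headers. Build rn6 is named in the submitters' processing notes, as are DESeq2 1.18.1, HISAT2 2.1.0 and fastp 0.23.0, without their roles. Which program counted the reads, and with which strand setting, is not given in the sources used here. Of 16990 rows, 2077 repeated another row and were dropped, 1 of them for Mrpl42.

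Log2 CPM were computed from the counts with edgeR 4.0.16 (R 4.3.3), by TMM scaling with a prior of 0.5 counts, for genes with 20 or more reads. Printed CPM carry no prior. Intervals are exact Clopper-Pearson 95% intervals of the read ratio. The floor of 3 reads amounts to 0.114 CPM in the IgE and 0.143 CPM in the untreated library. The calculation was tested on simulated data. Gene symbols, spans and promoters came from RefSeq (GRCr8), where 72 of the 73 names matched a symbol. No coding lengths were at hand, so levels are not compared between genes.

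The members and lists were chosen with earlier results of these data known. Genes were named by a fixed rule: the 6 highest and 6 lowest folds and the 4 highest and 4 lowest CPM of each subunit, every gene 1.5-fold apart, and genes with a set role. In related lists the 2 highest and 2 lowest were named. Mrpl11, a gene of this rule, and several genes of the lists were not analysed here. Others were named for their role after their values were seen. Alternatives were library totals, DESeq2 1.42.0 size factors, a prior of 5 counts and other minimums. Further ones were counting Mrps18a and Mrps30 as Mrpl genes, and leaving out a gene.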

Additional observations from a re-analysis of the deposited data

How the results depend on the processing

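The medians and summed ratios of Mrpl, Mrps and all 73 genes stayed above 0 under every alternative run. Of 67 alternative values, 8 moved, a count by over 1.5 times or a median or ratio by more than 0.5 of the width of the counting interval of the summed reads. With a minimum of 1000 reads, the median log2 fold was 0.12 over all 51 remaining genes, 0.10 for Mrpl and 0.13 for Mrps. With Mrps18a and Mrps30 counted as Mrpl genes, the median of Mrpl minus that of Mrps was -0.089 in place of -0.053. With a minimum of 1000 reads this difference was -0.03. A minimum of 100 or 1000 reads left 0 genes 2-fold apart in place of 1, and 1 and 0 genes 1.5-fold apart in place of 2, since fewer genes were tested. Of 114 alternative folds of 38 named genes, all moved by less than 0.5 of the width of their counting interval and 2 changed sign, both of Mrpl37, which was at 0.0012 and became -0.0047 with library totals and -0.0004 with DESeq2 size factors. Library totals moved the median of all genes to -0.0042. The count of genes above 0 under other scalings and leaving out Mrps36 were chosen after seeing the data, as were the classes of span and reads and the split by pseudogenes. No paired analysis was possible because there is a single library per group, and for the same reason no library could be left out. Depth limits Mrps17, Mrps6 and Mrpl33, which had under 120 reads each.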
